A study of Arabidopsis thaliana with 2 samples.

Results

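The enzymes that make very-long-chain wax, cutin and suberin precursors were compared between wild-type Arabidopsis thaliana and the crwn1 crwn2 double mutant in 10-day seedlings, with 1 library of polyadenylated RNA per genotype. Both CRWN genes code for filament-like proteins that line the inner face of the plant nucleus. The labels name neither the alleles nor the number of seedlings behind a library. The enzymes were the loci whose deposited product name contained "ketoacyl-CoA synthase" (18 loci), "glycerol-3-phosphate acyltransferase" (9), "O-acyltransferase (WSD1-like)" (7), "fatty acid reductase" (4), "fatty acid hydroxylase" (4) or "jojoba acyl" (1), while "eceriferum" matched none. This gave 43 of 21808 loci, of which 37 were listed for wild type, 41 for the double mutant and 35 for both.

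Waxes, cutin and suberin are the lipid barriers of plants. In epidermal cells, 3-ketoacyl-CoA synthases (KCS), the condensing enzymes of fatty acid elongation, lengthen acyl chains that CER1 and CER3 turn into alkanes, fatty acyl reductases (FAR) into alcohols and WSD1-type acyltransferases into wax esters. Glycerol-3-phosphate acyltransferases (GPAT) of the land-plant type join oxidised acyl chains to glycerol, giving building blocks of cutin on the shoot surface and of suberin in the root endodermis. Not all matched enzymes belong to these barriers: FAH1 and FAH2 hydroxylate sphingolipid fatty acids, GPAT9 acts in membrane and storage lipid synthesis, and GPAT1 is known from mitochondria and the tapetum. GPAT2 and GPAT3 were not placed in a wax, cutin or suberin role here. CER2, KCR1 and the CYP86 hydroxylases carry other product names and are described as pathway genes after the enzymes.

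The libraries held 2094 and 2204 uniquely placed reads in units of 1000 reads, for wild type and crwn1 crwn2, with a median of 24 reads per listed locus in the former and 26 in the latter. CRWN1 had 1021 and 57 reads in that order and CRWN2 had 148 and 9, in the direction of the genotype labels. Pairs of values are given in this order throughout. Levels are given as the authors' RPKM (reads scaled by transcript model length and library total), summed per locus, and ratios as crwn1 crwn2 over wild type. A locus was measured if 1 of the libraries reached an RPKM of 1 and 10 reads, and called higher or lower if RPKM + 1 differed at least 2-fold and the exact 95% interval of the ratio of reads excluded 1. These intervals hold counting error only. No replicate existed for either genotype, so no test between genotypes was made, and genotype cannot be told apart from differences in harvest or library preparation. In whole seedlings, fewer cells of a type and less RNA per cell cannot be told apart either.

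Of the 43 enzymes 32 were measured. Of these, 5 were called higher in crwn1 crwn2, namely KCS2, KCS16, FAR5, GPAT7 and AT5G12420, and 3 were called lower, namely GPAT2, GPAT3 and FAH1. The called share was 25.0% against 10.9% of all 14393 measured loci, of which 6.34% were higher and 4.53% lower. Because a locus could pass the floor through the library where it was high, the called share among measured loci is a description. The other 24 measured enzymes lay within 2-fold in RPKM + 1, though AT5G16350 had a ratio of reads of 2.28 (0.75 to 8.27). The 11 enzymes not measured had at most 9 reads in a library. The median log2 ratio was 0.25 over the measured enzymes and 0.12 over all measured loci, or 0.12 and -0.01 after TMM scaling. Under TMM scaling (a trimmed-mean correction of library totals, which moved the median of all loci by -0.13) KCS16 and AT5G12420 were no longer called, the split of the enzymes became 3 higher and 3 lower, and that of all measured loci changed from 912 higher and 652 lower to 691 and 826.

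By the deposited TAIR10 coordinates the called enzymes were scattered over the 5 nuclear chromosomes. Of those higher, KCS2 lies at chr1:1119699-1122526 on the reverse strand, FAR5 at chr3:16138017-16141546 on the forward strand and KCS16 at chr4:16394708-16396495 on the forward strand. GPAT7 lies at chr5:1835106-1836722 on the forward strand and AT5G12420 at chr5:4024314-4026741 on the reverse strand. Of those lower, GPAT2 lies at chr1:480852-483292 on the forward strand, FAH1 at chr2:14665667-14668250 on the forward strand and GPAT3 at chr4:844409-846787 on the reverse strand.

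Short stretches of sequence are shown for 6 of the 8 called enzymes. GPAT2 and GPAT3, both lower in crwn1 crwn2, shared the longest run of identical bases among all 903 pairs of enzymes in the 250 bases before the transcript model. This run of 18 bases, shown in capitals within 30 bases, had exactly 2 matches on the 5 nuclear chromosomes, counting both strands. The median longest run of all pairs was 8 bases. The pair is shown because its run was the longest, and any part of the run in the levels of GPAT2 and GPAT3 was not tested.

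GPAT2 (chr1:480718-480747, plus strand): aattacAATCATGCAAGCTGTACGggaaga
GPAT3 (chr4:846887-846916, minus strand): atgcatAATCATGCAAGCTGTACGttaacg

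The run began 128 bases before the deposited GPAT2 model and 123 bases before the deposited GPAT3 model. In the RefSeq annotation of TAIR10.1, whose gene start for GPAT2 lies further upstream, the GPAT2 stretch lies inside the gene and the GPAT3 stretch outside it. The next stretches are the 250 bases before the RefSeq gene start of the 4 enzymes called higher that held a match to a searched plant promoter motif, with matches in capitals. KCS2, the other enzyme called higher, had no match in its 250 bases and is not shown.

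GPAT7 (chr5:1834797-1835046, plus strand): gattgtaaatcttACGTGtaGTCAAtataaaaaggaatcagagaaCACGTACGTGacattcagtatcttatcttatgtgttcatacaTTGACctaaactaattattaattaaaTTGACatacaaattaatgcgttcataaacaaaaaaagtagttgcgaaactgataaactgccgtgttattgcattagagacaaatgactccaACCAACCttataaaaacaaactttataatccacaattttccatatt
FAR5 (chr3:16137326-16137575, plus strand): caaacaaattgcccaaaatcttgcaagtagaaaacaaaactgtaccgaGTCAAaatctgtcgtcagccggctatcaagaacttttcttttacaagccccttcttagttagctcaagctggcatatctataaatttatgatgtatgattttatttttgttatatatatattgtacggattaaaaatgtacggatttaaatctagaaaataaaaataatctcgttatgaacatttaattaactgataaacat
KCS16 (chr4:16394350-16394599, plus strand): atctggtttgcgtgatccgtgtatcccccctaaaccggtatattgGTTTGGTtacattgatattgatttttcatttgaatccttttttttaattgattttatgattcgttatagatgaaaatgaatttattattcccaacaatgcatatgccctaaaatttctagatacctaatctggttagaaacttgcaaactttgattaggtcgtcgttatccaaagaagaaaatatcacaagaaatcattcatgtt
AT5G12420 (chr5:4026850-4027099, minus strand): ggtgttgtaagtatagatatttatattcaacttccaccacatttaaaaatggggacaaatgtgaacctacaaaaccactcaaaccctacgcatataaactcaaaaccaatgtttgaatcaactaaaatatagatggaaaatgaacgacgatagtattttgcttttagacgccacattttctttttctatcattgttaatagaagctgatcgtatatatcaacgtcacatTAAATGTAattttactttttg

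The motifs were searched on both strands. The pattern TAAATGNA, with any base at N, is a loose form of the L1 box, a site of epidermal homeodomain factors. It was found before AT5G12420 and before 8 of the 43 enzymes (18.6%), among them KCS10 and CER1, against 9.91% of 27443 protein-coding genes. The MYB site ACCAAAC was found before KCS16 and 5 of 43 enzymes (11.6%, against 8.29% of all). The AC element ACCAACC, a further MYB site, was found before GPAT7 and 3 enzymes in all (6.98% against 2.69%). The core ACGTG of abscisic acid response elements was found before GPAT7 and 12 enzymes in all (27.9% against 22.9%). The W-box core TTGAC, to which WRKY factors bind, was found before GPAT7, FAR5, the lower GPAT3 and FAH1, and 19 enzymes in all (44.2% against 44.9%). The AC elements ACCTACC and ACCTAAC and the GCC box GCCGCC were found before 2, 1 and 1 enzymes, none of them called. In GPAT7 the ACGTG matches on opposite strands stand side by side, and no 2 matches shown share a base. These matches describe letters in a window, not bound sites.

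The elongases held the highest levels of the barrier enzymes, and most differed little. KCS20 (AT5G43760) had 694 and 903 reads, an RPKM of 180.0 and 222.6, with a ratio of 1.24 (1.12 to 1.37). KCS10 (AT2G26250) had 647 and 870 reads, an RPKM of 145.9 and 186.5, with a ratio of 1.28 (1.15 to 1.42). KCS20, with KCS2, makes very-long-chain precursors of root suberin and of wax, and KCS10, known as FIDDLEHEAD, keeps epidermal organs from fusing. Together they took 23.7% and 30.2% of the reads of all 43 enzymes. Over the 18 synthases reads summed to 3029 and 3675, a ratio of shares of 1.15 (exact 95% interval 1.10 to 1.21), which became 1.05 after TMM scaling.

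**Figure D1:**
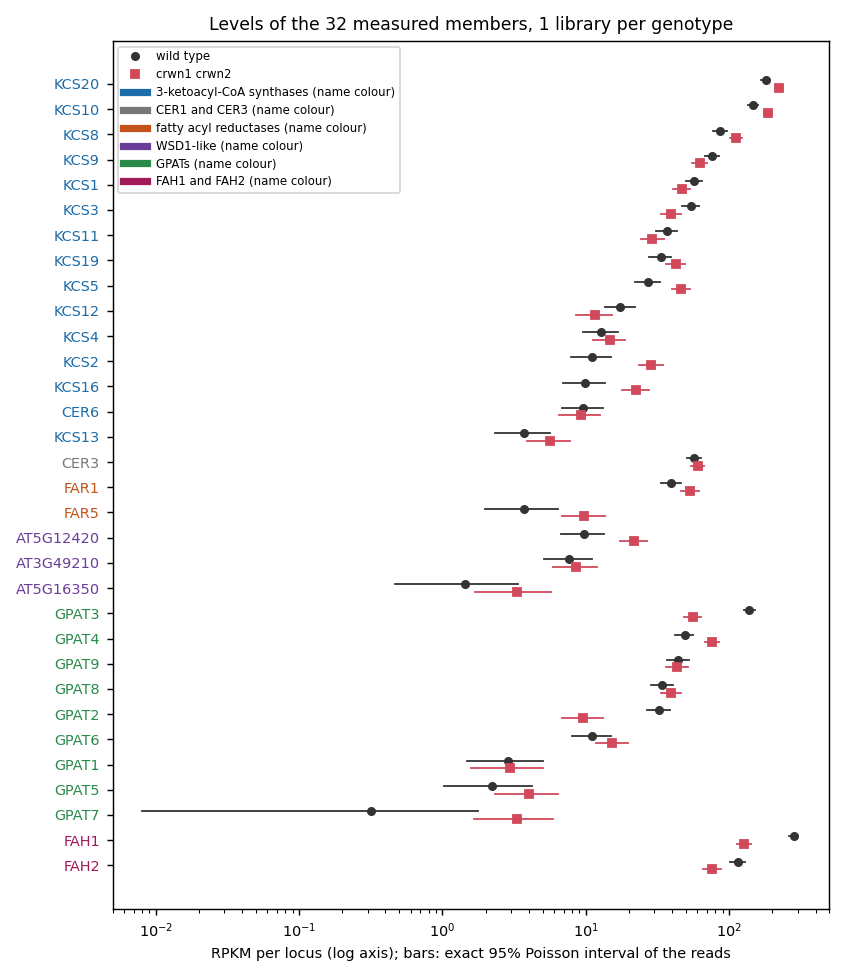
RPKM per locus (log axis) of the 32 measured enzymes in wild type (dark circles) and crwn1 crwn2 (red squares), 1 library each, with bars for the exact 95% Poisson interval of the reads and name colours for the families. FAH1 was the highest in wild type at 281 and KCS20 in crwn1 crwn2 at 223, and GPAT7 had the widest interval, from 1 read in wild type.

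KCS2 and KCS16 were the called synthases. KCS2 (AT1G04220) had 41 reads in wild type and 112 in crwn1 crwn2, an RPKM of 11 and 28.5, with a ratio of reads of 2.60 (1.80 to 3.81) and a log2 ratio of 1.30. KCS2 reads made up 5.58% (4.03 to 7.49) of the reads of the KCS2 and KCS20 pair in wild type and 11% (9.17 to 13.1) in crwn1 crwn2, intervals that did not overlap. Of 2169 windows of 49 bases, the read length, in KCS20, 5 also occurred in KCS2. KCS2 also overlaps an annotated antisense non-coding RNA, AT1G04247, over 81.4% of its span, and without a statement of strand their reads cannot be told apart. KCS16 (AT4G34250), which makes the longest wax chains of leaf trichomes, had 37 and 88 reads, an RPKM of 9.88 and 22.3, with a ratio of 2.26 (1.52 to 3.41) and a log2 ratio of 1.10, or 0.97 and not called after TMM scaling.

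The 13 other measured synthases stayed within 2-fold, in both directions. KCS5, a wax elongase closely related to CER6, had 101 and 182 reads (ratio 1.71, 1.34 to 2.21). KCS8 had 306 and 419 reads, and KCS9, which makes saturated very-long-chain acids in roots and shoots, had 312 and 268. KCS8 thus took 49.5% (45.5 to 53.5) of their summed reads in wild type and 61.0% (57.2 to 64.7) in crwn1 crwn2. These shares restate the opposite directions of KCS8 and KCS9. KCS3 had 203 and 155 reads (ratio 0.73, 0.58 to 0.90) and KCS12 had 70 and 49 (0.67, 0.45 to 0.97). KCS3 and KCS12 have been described as proteins that restrain CER6 in Arabidopsis. KCS1, an elongase of wax synthesis, had 226 and 195 reads, an RPKM of 56.8 and 46.6 (ratio 0.82, 0.67 to 1.0), and KCS11 had 140 and 117. KCS19 had 130 and 174 reads, KCS4 had 52 and 63, and KCS13, known as HIC for its effect on stomatal number, had 22 and 35. In KCS13 27.3% of windows of read length also occurred in AT3G10280, where reads cannot be placed uniquely.

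CER6, the main elongase of stem and leaf wax, could be followed only over a short stretch. It had 38 reads in wild type and 39 in crwn1 crwn2, a log2 ratio of -0.06, and was the only one of the 43 enzymes listed with 2 transcript models. Reads covered 88 bases of its first model in wild type, 4.73% of the length, where evenly spread reads would have covered 60.2%. Those bases were covered 19.5 times on average, against 15.5 times for the covered bases of KCS10. The RPKM of 9.62 and 9.19 divides these reads by the whole model length. The ratio of reads, 0.98 (0.61 to 1.57), sums both models, while the coverage is that of the first model only. Coverage was 4.94% in crwn1 crwn2.

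**Figure D2:**
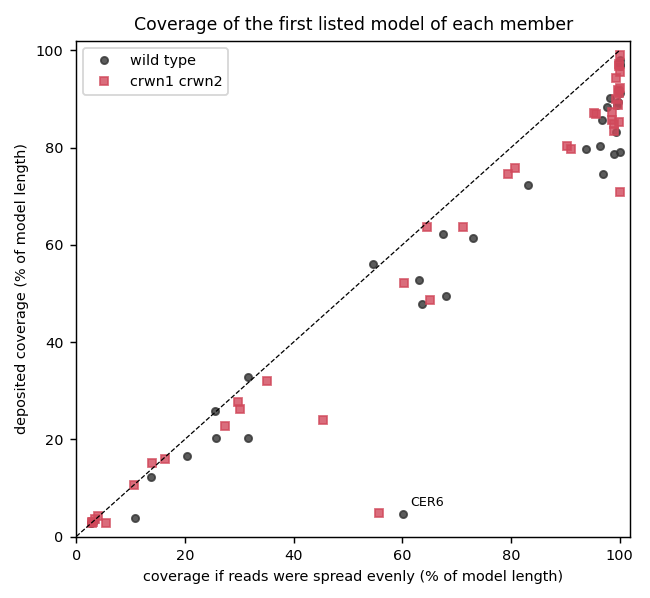
Percent of each enzyme's first listed transcript model covered by reads (vertical axis, as deposited) against the percent that the same number of 49-base reads would cover if spread evenly (horizontal axis), for wild type (circles) and crwn1 crwn2 (squares), with a dashed line of equality. CER6 lies far below the line at 4.73% and 4.94%, while most other enzymes follow it.

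Of the elongases below the floor, KCS15 had 9 reads in wild type and 0 in crwn1 crwn2, for which the exact interval of the ratio reached up to 0.48. It overlaps AT3G52155 on the opposite strand over 33.2% of its span. KCS17 had 1 and 5 reads and KCS21 had 0 and 1. KCS21, like KCS15, is known from anthers.

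The alkane branch was represented by CER3, whose interval included 1. CER3 (AT5G57800), the partner of CER1 in alkane formation, had 297 and 332 reads, an RPKM of 56.7 and 60.3, with a ratio of 1.06 (0.91 to 1.25) and a log2 ratio of 0.09, or -0.05 after TMM scaling. CER1 had 0 and 2 reads, and CER4, the reductase of wax alcohols, had 0 and 1. RefSeq annotates 5 transcripts for CER1 and 2 for CER4. How reads shared by several transcripts of a locus were counted is not stated, so few reads do not show that these genes were low, and these numbers allow no comparison.

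Among the reductases of suberin alcohols, FAR5 was called higher. FAR5 (AT3G44550) had 13 reads in wild type and 36 in crwn1 crwn2, an RPKM of 3.71 and 9.78, with a ratio of 2.63 (1.36 to 5.41) and a log2 ratio of 1.19. FAR1 (AT5G22500), the most abundant reductase, had 147 and 209 reads, an RPKM of 39.5 and 53.3, with a ratio of 1.35 (1.09 to 1.68). FAR1 overlaps AT5G22505 on the opposite strand over 35.6% of its span. FAR4, which makes suberin alcohols as FAR1 and FAR5 do, had 4 and 2 reads, and FAR6, a plastid reductase, had 0 and 1. RefSeq annotates 3 transcripts for FAR4, so its few reads have the limit given for CER1 and CER4. The share of FAR5 in the reads of FAR5 and FAR1 was 8.13% (4.40 to 13.5) in wild type and 14.7% (10.5 to 19.8) in the double mutant, with overlapping intervals. Summed over the 5 reductases, reads were 164 and 249, a ratio of shares of 1.44 (1.18 to 1.77).

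The WSD1-like wax ester synthases had few reads in both libraries, with 1 of 3 measured called higher. Over the 7 loci reads summed to 71 and 139, a ratio of shares of 1.86 (1.39 to 2.51), or 1.69 after TMM scaling. AT5G12420 held 49.3% and 59.0% of these reads, with 35 and 82 reads, an RPKM of 9.70 and 21.6, a ratio of 2.23 (1.48 to 3.41) and a log2 ratio of 1.08, or 0.95 and not called after TMM scaling. AT3G49210 had 29 and 34 reads and AT5G16350 had 5 and 12. WSD1 itself, the synthase of stem wax esters, had 0 and 6 reads and was not measured. FOP1, known from petal surfaces, had 1 and 4, AT3G49190 had 1 and 0, and AT2G38995 had 0 and 1. RefSeq annotates 4 transcripts each for WSD1 and AT2G38995, so their few reads have the limit given for CER1 and CER4.

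In the GPAT family GPAT7 was called higher, GPAT2 and GPAT3 were called lower, and the other 6 were not called. GPAT4 (AT1G01610), which acts with GPAT8 in leaf cutin, had 190 and 309 reads, an RPKM of 48.9 and 75.6, with a ratio of 1.55 (1.29 to 1.86) and a log2 ratio of 0.62, not called. GPAT8 (AT4G00400) had 134 and 163 reads, an RPKM of 34.2 and 39.5 (ratio 1.16, 0.91 to 1.46). GPAT6 (AT2G38110), the acyltransferase of flower cutin, had 43 and 62 reads, an RPKM of 11.1 and 15.2 (ratio 1.37, 0.91 to 2.07). GPAT5 (AT3G11430), the enzyme of root and seed coat suberin, had 9 and 17 reads, an RPKM of 2.23 and 4.0, and its ratio of 1.80 had an interval from 0.76 to 4.57. GPAT7 (AT5G06090), a relative of GPAT5, had 1 and 11 reads, an RPKM of 0.32 and 3.32, with a ratio of 10.5 (1.52 to 450), called and resting on 1 read in wild type.

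GPAT3 (AT4G01950) was the most abundant GPAT in wild type, with 528 reads against 224 in crwn1 crwn2. Its RPKM was 138 and 55.6, and it was 2.48-fold lower (2.12 to 2.91), a log2 ratio of -1.30. GPAT2 (AT1G02390) had 121 and 38 reads, an RPKM of 32.3 and 9.63, and was 3.35-fold lower (2.31 to 4.96), a log2 ratio of -1.65. Within the pair, GPAT2 reads made up 18.6% (15.7 to 21.9) in wild type and 14.5% (10.5 to 19.4) in crwn1 crwn2, with overlapping intervals. These are the genes with the shared 18-base run shown above, whose part in their levels was not tested. With them included, the 9 GPATs summed to fewer reads in crwn1 crwn2, 965 against 1162, a ratio of shares of 0.789 (0.724 to 0.860), or 0.719 after TMM scaling. GPAT9 had 124 and 128 reads and GPAT1 had 12 and 13, ratios of 0.98 and 1.03.

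**Figure D3:**
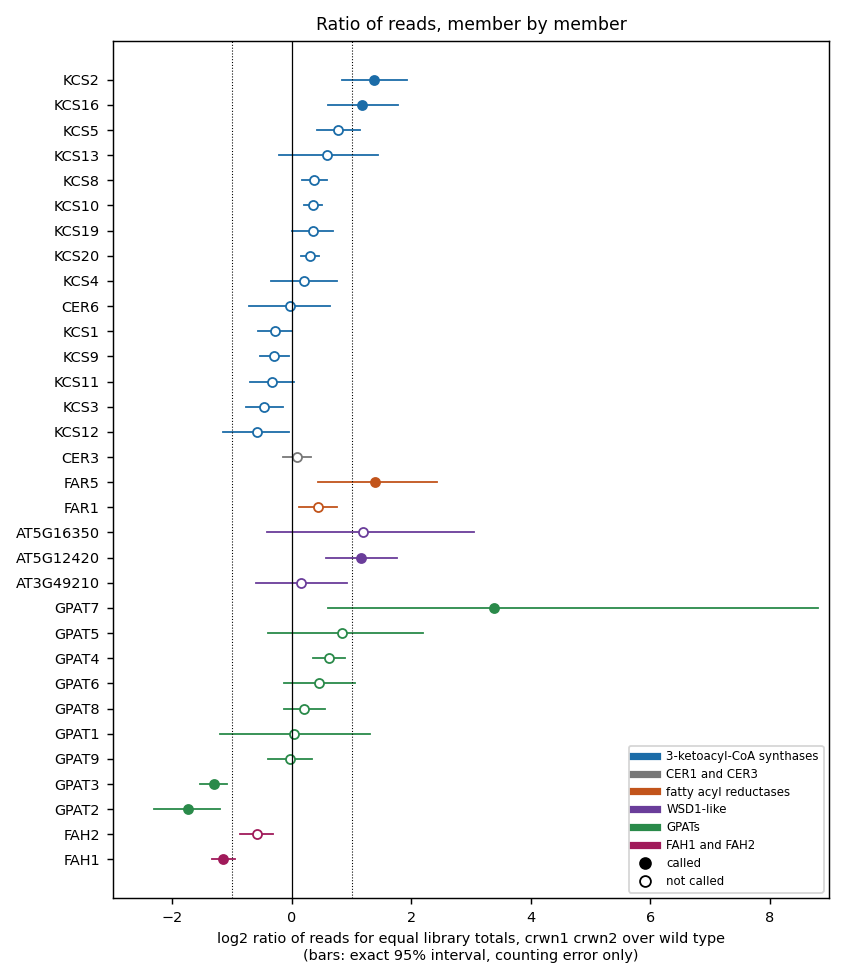
Log2 ratio of reads for equal library totals, crwn1 crwn2 over wild type, for the 32 measured enzymes by family, with bars for the exact 95% interval and filled points for called enzymes. Dotted lines mark 2-fold, and GPAT2, GPAT3 and FAH1 stand at its lower side while KCS2, KCS16, FAR5, AT5G12420 and GPAT7 stand at its upper side.

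The sphingolipid hydroxylases were both lower in reads, and FAH1 was called. FAH1 (AT2G34770) had 673 and 320 reads, an RPKM of 281 and 127, and was 2.21-fold lower (1.93 to 2.54), a log2 ratio of -1.14. FAH2 (AT4G20870) had 264 and 185 reads, an RPKM of 114 and 76.2, with a ratio of 0.67 (0.55 to 0.81). FAH1 reads made up 71.8% (68.8 to 74.7) of the pair in wild type and 63.4% (59.0 to 67.6) in crwn1 crwn2. FAH1 is overlapped on the opposite strand by the pseudogene AT2G34760 over 15.9% of its span and by the non-coding AT2G08680 over 8.40%. It was the highest of the 43 enzymes in wild type by RPKM and the third in crwn1 crwn2, after KCS20 and KCS10.

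Grouped by known role rather than family, the 6 suberin enzymes KCS2, KCS20, FAR1, FAR4, FAR5 and GPAT5 had 908 reads in wild type and 1279 in crwn1 crwn2, a ratio of shares of 1.34 (1.23 to 1.46). Of the 5 measured, 2 were called higher and all 5 had a log2 ratio above 0, with a median of 0.63. KCS20, which also makes wax precursors, gave 694 and 903 of the 908 and 1279 reads, with a ratio of 1.24. The 3 cutin GPATs had 367 and 534 reads, a ratio of 1.38 (1.21 to 1.58), with none called. The 9 wax enzymes had 1346 and 1715 reads, a ratio of 1.21 (1.13 to 1.30), with 1 of 6 measured called. Without CER1, CER4 and CER6 the wax ratio was 1.22 (1.13 to 1.31). No suberin, cutin or wax enzyme of these groups was called lower. Of all measured loci, 6.34% were called higher and 4.53% lower, and in groups this small the counts of calls are a description. The called enzymes GPAT2, GPAT3, GPAT7 and AT5G12420 were placed in none of these groups, and FAH1 was placed with the sphingolipid enzymes. After TMM scaling the ratios of the 6 suberin, 3 cutin and 9 wax enzymes were 1.22, 1.26 and 1.10. The called wax enzyme, KCS16, was no longer called. Before TMM scaling, the ratio of read shares was 1.42 (1.22 to 1.65) for endodermis markers and 2.21 (2.06 to 2.37) for shoot epidermis markers. For root hair and root markers it was 1.97 (1.69 to 2.30). The summed RPKM of endodermis markers was 71.0 and 119, and that of root hair and root markers 51.3 and 126, as detailed with the marker lists. That of shoot epidermis markers was 336 and 843 (75.1 and 91.9 without PDF1). All 43 enzymes summed to 0.270% and 0.266% of the reads, a ratio of 0.985 (0.95 to 1.02).

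Other genes of the same pathways, 52 in 6 lists, were counted in the same way. Of 39 measured, 12 were called higher and none lower, with a median log2 ratio of 0.56, against 6.34% and 4.53% of all measured loci. After TMM scaling 9 were called higher and none lower, against 4.80% and 5.74%. With an RPKM floor of 5, 8 of 33 were called higher. The called genes LACS1, CYP77A6, CYP86A7, MYB106 and MYB53 passed the floor of 10 reads only through crwn1 crwn2, where they were high. The lists were also chosen with earlier results of these data known, so the called shares are a description. Cutin synthesis genes held the most calls, 6 of 10, with a median of 1.09. DCR (AT5G23940), a cutin acyltransferase gene, had 47 and 298 reads, a ratio of 6.03 (4.42 to 8.38) and a log2 ratio of 2.50. LTL1, a lipase-like gene, had 112 and 328 reads, and HTH, an oxidoreductase gene of organ separation, had 10 and 40, covering 6.51% and 7.54% of its model. The cutin hydroxylase genes CYP77A6 and CYP77A4 had 6 and 19 and 11 and 27 reads, and CYP86A7 had 0 and 11. CYP77A4, at a log2 ratio of 1.01, was not called after TMM scaling. CYP86A2, the most abundant hydroxylase gene of the list, had 468 and 339 reads and a log2 ratio of -0.53.

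In the list of wax elongation and branch genes, 3 of 9 were called higher and none lower, with a median of 0.83. KCR1 (AT1G67730), the ketoacyl reductase that follows every KCS in the elongation cycle, had 150 and 321 reads and a log2 ratio of 1.01, not called after TMM scaling. CER26, a CER2-related gene of chain elongation, had 117 and 328 reads (1.39), and LACS1, a long-chain acyl-CoA synthetase gene, had 8 and 34 (1.51) on 5.57% and 8.31% of its model. CER10, the enoyl reductase gene of the cycle, had 138 and 261 reads (0.83) and CER2 had 147 and 190 (0.29). PAS2, the dehydratase gene, and MAH1 were not listed in either library. As the counting rule is not stated, this does not show that they were not expressed.

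None of the 5 export genes of the cuticle was called, the median was 0.12, or -0.01 after TMM scaling, and the lipid-transfer gene LTPG2 had the largest difference, with 25 and 16 reads. The transporter genes ABCG11 and ABCG12 had ratios of 1.09 and 1.10. Among 6 measured suberin synthesis and export genes, the transporter gene ABCG6 was called higher (14 and 41 reads, log2 ratio 1.2), and the median was 0.70. The suberin hydroxylase genes CYP86A1 (55 and 107 reads) and CYP86B1 (12 and 28) had log2 ratios of 0.84 and 0.91. Of the regulators, MYB106 was called higher among 6 cuticle genes (3 and 14 reads) and MYB53 among 3 suberin genes (2 and 10 reads, not called after TMM scaling). The wax regulator genes MYB96, MYB94 and MYB30 had log2 ratios of 0.06, 0.21 and 0.17, and the wax repressor gene DEWAX had 449 and 472 reads. MYB16 of the cuticle list (13 and 8 reads) and MYB92 of the suberin list (25 and 20) had log2 ratios of -0.60 and -0.35. Log2 ratios were above 0 for 4 of the 6 cuticle regulators and 2 of the 3 suberin regulators measured.

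**Figure D4:**
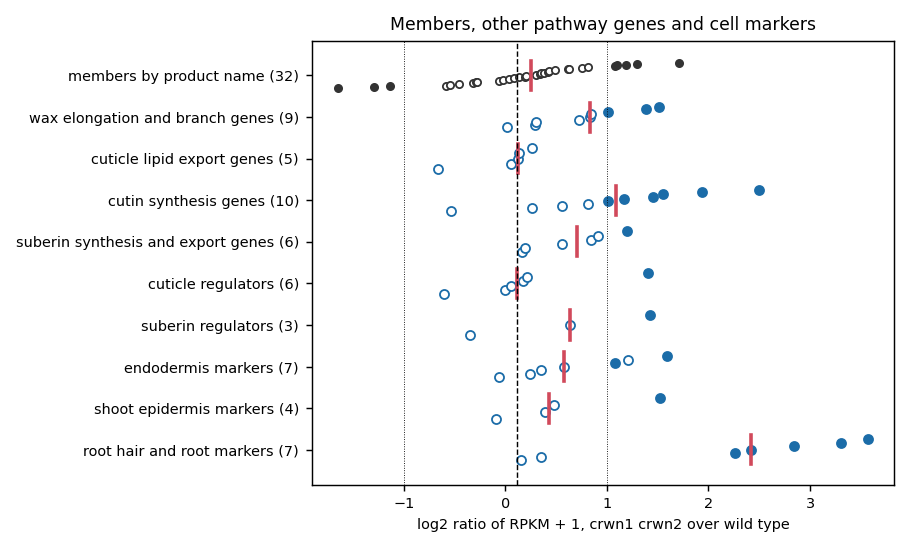
Log2 ratio of RPKM + 1, crwn1 crwn2 over wild type, for the measured enzymes, 6 lists of other pathway genes and 3 lists of cell markers, with the number measured in brackets, filled points for called genes and a red bar for each median. The dashed line is the median of all measured loci (0.12) and dotted lines mark 2-fold, and the cutin list stands at a median of 1.09.

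Markers of the cells that make these barriers were counted in the same way. Of all measured loci, 6.34% were called higher and 4.53% lower. Of 7 measured endodermis markers, 2 were called higher, CASP1 (18 and 61 reads) and CASP2 (9 and 22), and none lower. The median log2 ratio of the 7 was 0.58, and 6 of them were above 0. The summed RPKM of all 10 was 71.0 and 119, and the endodermal identity gene SCR had 172 and 232 reads. CASP5 (0 and 1 reads) and ESB1 (0 and 2) were near 0 in both libraries, CASP4 had 3 and 3, and MYB36 had 18 and 23. After TMM scaling 1 of the 7 endodermis markers was called higher, against 4.80% of all measured loci. Of 4 shoot epidermis markers, PDF1 was called higher, with 678 and 2057 reads, while ATML1 and PDF2 had log2 ratios of 0.39 and 0.47 and HDG1 -0.09. ATML1 was listed with 2 transcript models, and reads covered 1.6% of the first in both libraries. The summed RPKM of the 4 epidermis markers was 336 and 843, or 75.1 and 91.9 without PDF1. Of 7 root hair and root markers, 5 were called higher, namely PRP3 (7 and 96 reads), LRX1 (4 and 46), COBL9 (1 and 23), EXPA18 (0 and 24) and EXPA7 (0 and 14). The others, SCR and SHR (61 and 72 reads), were not called, with ratios of 1.28 (1.05 to 1.57) and 1.12 (0.79 to 1.60). The summed RPKM of all 7 was 51.3 and 126, to which SCR gave 32.7 and 42.0 and SHR 14.7 and 16.5. CASP2 and the 5 called root markers had fewer than 10 reads in wild type and passed the floor only through crwn1 crwn2. The called counts of the marker lists are therefore a description. SCR stands in 2 of these lists. The part of these markers in the levels of the suberin, cutin and wax enzymes was not tested.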

How the data were processed

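Polyadenylated RNA of seedlings was sequenced with an Illumina instrument, per the labels' protocols. Per the file headers, the deposited counts are reads with a unique placement, given for each transcript model. The authors' RPKM values equal counts divided by model length and header total, and their coverage is the percent of the model with reads. Submitters' processing notes name TAIR10 as the genome. Neither aligner, counting rule nor strand is stated in the labels or files, and a model without reads is not listed.

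Counts and RPKM were summed per locus. Log2 ratios used a pseudocount of 1, and ratio intervals are exact conditional binomial (Clopper-Pearson) 95% intervals. PCR copies are not independent molecules. TMM factors came from edgeR 4.0.16, and other steps used Python 3.11.15 and scipy 1.17.1. Alternatives changed the pseudocount (0.1), the floor (an RPKM of 5, or none), the scaling (TMM, CPM), the threshold (4-fold, 1.5-fold) or kept only loci with 1 listed model.

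The enzymes, roles, gene lists and rules were chosen with earlier results of these data known. All enzymes may be named. Of the 72 list genes, those called and otherwise the one with the largest log2 ratio of a list were to be named, and any other was named after its values were seen. For 4 list genes the sources used here do not give the name, so these were counted only. Sequences are from the RefSeq TAIR10.1 genome, where 99.97% of 21651 nuclear loci shared with the files overlapped their own gene. Protein sequences were not used here.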

Additional observations from a re-analysis of the deposited data

How the results depend on the processing

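With 1 library per genotype no library could be left out, and no paired analysis was possible because each genotype has only 1 library. KCS2, FAR5, GPAT2, GPAT3 and FAH1 were called under every alternative except the 4-fold threshold, under which 0 enzymes were higher and 0 lower, and 1 pathway gene was higher. TMM scaling left 3 enzymes higher and 3 lower. It gave ratios of read shares of 0.897 for all enzymes, 0.719 for the GPATs and 1.05 for the elongases. GPAT7 was not measured with an RPKM floor of 5, KCS15 and WSD1 were called without a floor, and GPAT4 and KCS5 at 1.5-fold. Of 66 log2 ratios of 22 named enzymes under a pseudocount of 0.1, TMM scaling or CPM, 66 stayed inside their counting interval and none of a called enzyme changed sign. These alternatives use the same reads and several intervals are very wide, so this outcome says little. KCS16 and AT5G12420 still lost their calls under TMM scaling. Alternatives for pathway genes and family shares, and the sums without PDF1 or without CER1, CER4 and CER6, were added after seeing the data. Members with few reads, such as GPAT7, GPAT5 and WSD1, have intervals too wide to give a size.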

Other observations

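Genes beside the called enzymes were read from the listed loci on either side. Of the 16 listed neighbours of the 8 called enzymes, 12 were measured and 1 was called, against 10.9% of all measured loci. This was GA2OX6, a gibberellin 2-oxidase gene 3509 bases downstream of GPAT2, with 43 and 20 reads and a log2 ratio of -1.07, in the direction of GPAT2. Of the 49 measured neighbours of the other enzymes 5 were called. FAR4, the only neighbour of a called enzyme that is itself a wax, cutin or suberin enzyme, had 4 and 2 reads beside FAR5.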
